A study of Mus musculus with 8 samples.

Results

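Notch signalling passes between touching cells. A ligand on one cell (Jag1, Jag2, Dll1 or Dll4) binds a receptor on its neighbour (Notch1 to Notch4), the receptor is cut, and its freed intracellular part joins the DNA-binding protein Rbpj and a Mastermind coactivator such as Maml1 to switch on target genes, among them the repressors Hes1 and Hey1. In the female reproductive tract and elsewhere the pathway is known for its part in cell fate choices of epithelia, in smooth muscle and in blood vessels, where Dll4 and Notch4 are typical of endothelium and Notch3 of mural cells. The 10 genes named here, 4 ligands, 4 receptors and 2 targets, were chosen by name with results of these arrays for control against genistein (Gen) known, and no threshold was applied. Every one of their 14 probes, of 41174 noncontrol probes for 27962 gene names on the array, is described. The signal differences of these 14 probes between the groups are therefore a description. No p-value is given for a single probe, and the calls of a test across all probes are counted without being read as evidence.

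Oviduct RNA came from adult CD-1 mice that had received subcutaneous injections on PND1–PND5, either of the corn oil vehicle (control, n = 4) or of Gen at 50 mg/kg/day (n = 4). Gen is an estrogenic compound of soy. At 6–8 weeks of age all of the mice were superovulated and mated. Oviducts were taken on GD2, 48 hr after hCG, with embryos removed, so both groups share the hormone treatment and mating. Each mouse gave 1 array, hybridized with 1 dye (Cy3), and the values are scanner intensities scaled so that the 75th percentile of each array was the same. The control arrays had 25359–28934 probes well above background and the Gen arrays 29527–31481, and markers of the oviduct were bright on all of them: Ovgp1, the oviductal glycoprotein, averaged 517773 (control) and 538265 (Gen). All control mice shared 1 slide and all Gen-treated mice another, so a slide effect and a Gen effect cannot be told apart. Whole oviduct was used, so fewer cells of a type and less RNA per cell cannot be told apart either.

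Sequences are shown for the probe on which the groups lay farthest apart, and for 2 promoters of Notch target genes, picked after their values were seen. The probe with the largest difference reads the Jag1 transcript at chr2:136824059-136824118 of mm7, the build of the array design. It has no stop codon in any of its 3 forward frames:
Jag1 A_51_P280906: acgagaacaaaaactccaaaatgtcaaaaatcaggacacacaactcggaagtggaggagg
The other Jag1 probe, A_52_P634090, lies at chr2:136822550-136822609, with 1449 bases between them. Each of the 3 forward frames of A_52_P634090 holds a stop codon. Frames of so short a run do not place a probe in coding or untranslated sequence. RefSeq promoter windows (GRCm38.p6) were searched in the 250 bases before the start for GTGGGAA, the letters that Rbpj is known to bind, or TTCCCAC on the other strand. Of all 32851 windows, 5.42% held it, and 21.6% held the shorter core TGGGAA or TTCCCA, which is part of it. Windows were given for 8 of the 10 genes, and 0 of these 8 held either run of letters. Hes1 and Hey1 had no window. Heyl had none either, and the window of Tle1, a corepressor gene described below, held 0 of either run. The windows of Hey2 and Hes5, target genes described below, held the longer motif, at 207 to 201 bases before the start in Hey2 and at 226 to 220 and 83 to 77 bases before it in Hes5. In these sequences, printed 5′ to 3′ on the strand of the gene, capitals mark GTGGGAA or TTCCCAC, in Hey2 at chr10:30842784-30843033 (minus strand) and in Hes5 at chr4:154960673-154960922 (plus strand):
Hey2: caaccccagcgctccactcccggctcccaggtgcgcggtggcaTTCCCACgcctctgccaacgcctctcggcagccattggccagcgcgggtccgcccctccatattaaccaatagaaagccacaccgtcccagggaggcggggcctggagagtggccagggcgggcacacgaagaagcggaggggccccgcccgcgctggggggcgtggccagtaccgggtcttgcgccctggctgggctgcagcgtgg
Hes5: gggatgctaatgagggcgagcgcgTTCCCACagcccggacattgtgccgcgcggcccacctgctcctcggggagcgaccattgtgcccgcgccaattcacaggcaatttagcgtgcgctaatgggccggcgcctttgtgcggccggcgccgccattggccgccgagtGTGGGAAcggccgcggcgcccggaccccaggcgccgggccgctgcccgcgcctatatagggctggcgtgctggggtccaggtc
A match is a description of letters and not a bound site.

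In the oviduct on GD2, the ligands Jag1 and Dll4 had lower signals in Gen-treated mice than in controls, without overlap. The receptor Notch1 was lower by less, and its probe A_52_P183088 overlapped between the groups. Jag2, Dll1, Notch3 and Notch4 overlapped closely. All Notch2 probes overlapped too, with lower Gen means on A_51_P216397 and A_52_P448796. The targets Hes1 and Hey1 overlapped as well. A probe is called detected throughout here where Feature Extraction marked it well above background on each of the 8 arrays. All 14 probes were detected throughout, and none was saturated. Of the 14, 11 were lower in Gen-treated mice by any amount, and the median log2 difference, Gen minus control, was −0.19, against −0.06 over all 41173 probes tested and −0.01 over the 24920 detected throughout. Benjamini-Hochberg adjustment of the limma p-values over every probe tested left 3 of the 14 under 0.05 (both Jag1 probes and Dll4), all lower. Of all probes tested, 14.0% were called lower and 2.17% higher, and of those detected throughout 4.37% were called in either direction. When probes dim in both groups were left out before the test, 1.11% of the probes kept were called, and 1 of the 14, Jag1 A_51_P280906. Without Gen replicate 1, 2 or 3 the count was 0 of 14, and only 3, 2 and 1 of all probes were called. The groups did not overlap on 4 of the 14 probes (both Jag1 probes, Dll4 and 1 Notch1 probe), against 12.4% of the probes detected throughout. Since the genes were chosen with this contrast known, nothing is read from these counts.

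**Figure D1:**
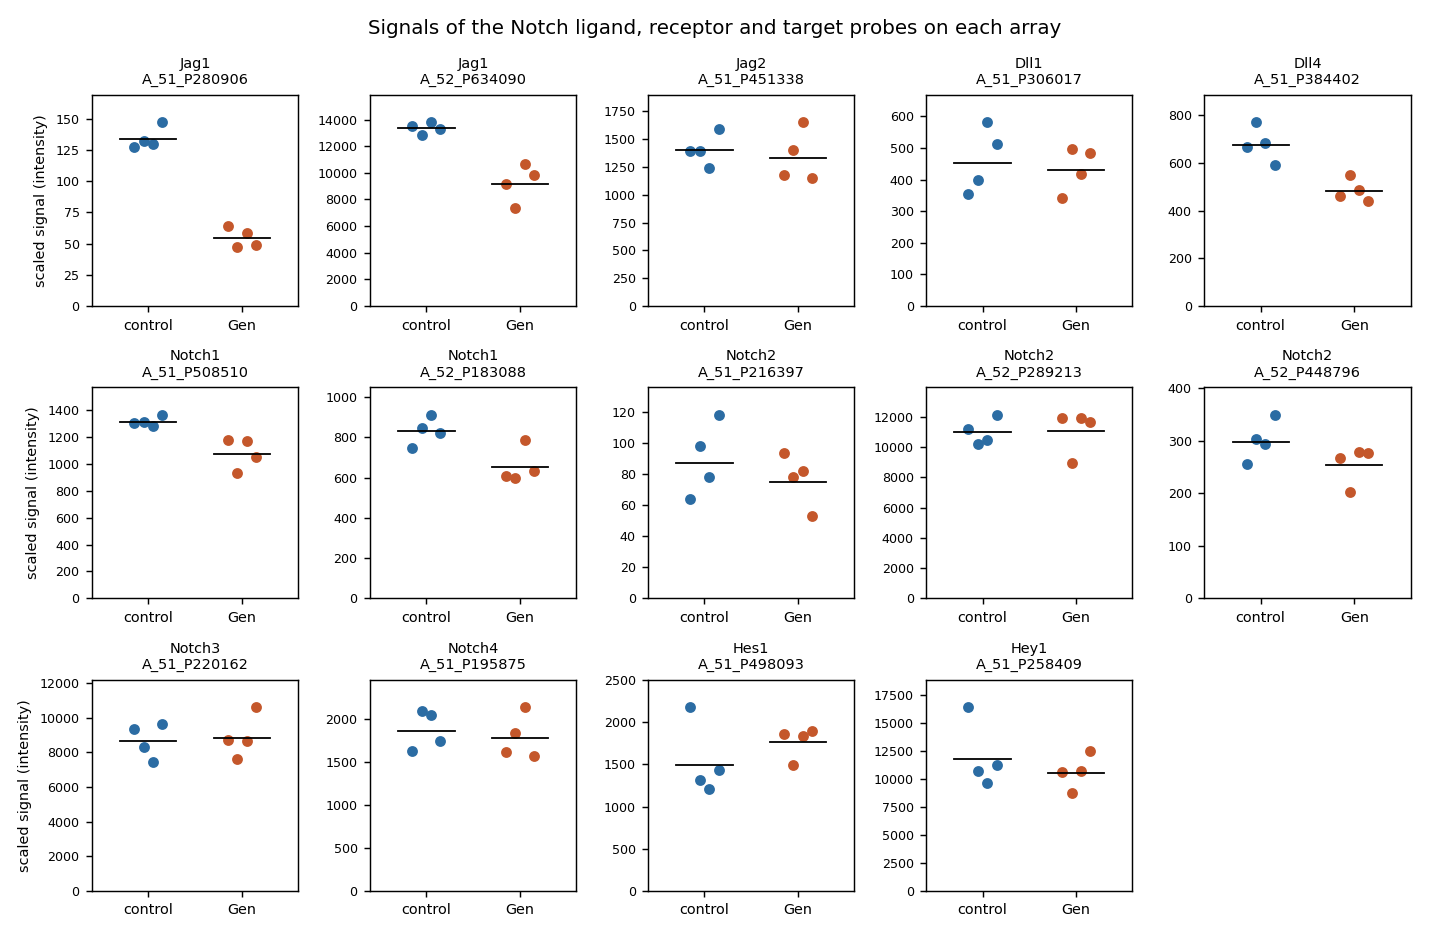
Scaled signal (linear intensity, axis from 0) of each of the 14 probes on each array, 4 control and 4 Gen-treated mice; points are arrays and black lines are means of log2 signals. The Gen points of both Jag1 probes, of Dll4 and of Notch1 A_51_P508510 all lie below the control points, and the other 10 panels overlap.

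Among the ligands, Jag1 differed most. Jag1 is a membrane ligand of the Jagged class, made by many epithelia and by vessel walls. Its probe A_51_P280906 had signals of 127, 132, 130 and 147 on the control arrays and of 64.3, 47.3, 58.8 and 49.1 on the Gen arrays. All 4 Gen values lay below the lowest control value. This probe was dim, at 1.97 to 5.17 times the lowest signal marked well above background on the same array. All 4 Gen values also lay under 65.9, the floor of an alternative that gave a log2 difference of −1.02. The log2 difference was −1.30 (SE 0.13, n = 4 per group), or 40.7% of the control signal. The second Jag1 probe, A_52_P634090, gave 13528, 12835, 13790 and 13265 in controls and 9168, 7346, 10626 and 9842 in Gen-treated mice, again without overlap. Here the log2 difference was −0.54 (SE 0.14), or 68.6% of the control signal. The control arrays of both probes lay within a narrow range, and the Gen arrays were spread more widely, with SDs of 0.04 and 0.23 on the log2 scale for A_52_P634090. The difference between the 2 Jag1 probes on the same array, in which the scaling cancels, ran from −6.73 to −6.49 in controls and from −7.65 to −7.15 in Gen-treated mice. The 2 probes of this gene thus had the same direction and unequal sizes, with the larger difference on the dimmer probe.

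Jag2, the other Jagged ligand, had signals of 1398, 1390, 1238 and 1596 in controls and 1180, 1401, 1652 and 1152 in Gen-treated mice, a log2 difference of −0.07 (SE 0.15). Both the lowest and the highest of these 8 values were Gen arrays. Within arrays, Jag1 A_52_P634090 minus Jag2 averaged 3.25 (SD 0.18) in controls and 2.78 (SD 0.31) in Gen-treated mice, with some overlap (control low 3.06, Gen high 3.09).

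Dll4, the Delta-like ligand known from arterial and sprouting endothelium, gave 667, 770, 683 and 593 in controls and 462, 551, 484 and 439 in Gen-treated mice. All 4 Gen values lay below the lowest control value, and the log2 difference was −0.49 (SE 0.13). This probe lies at chr2:119075892-119075951 of mm7. Dll1, the other Delta-like ligand of the group, was read by a probe printed on 10 spots. Its signals were 355, 398, 581 and 512 in controls and 340, 495, 417 and 485 in Gen-treated mice, a difference of −0.07 (SE 0.20). The spots of an array agreed far better than the mice did: their SD on the log2 scale was at most 0.11, while the controls had an SD of 0.33. Dll4 minus Dll1 on the same array averaged 0.58 (SD 0.41) in controls and 0.17 (SD 0.24) in Gen-treated mice and overlapped.

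Of the receptors, Notch1 had the lowest Gen values relative to controls. One of its probes, A_51_P508510, is also printed on 10 spots, and it gave 1304, 1309, 1285 and 1365 in controls and 1176, 930, 1168 and 1052 in Gen-treated mice. The controls lay close together, all Gen values were lower, and the log2 difference was −0.29 (SE 0.11). The other probe, A_52_P183088, abuts the first on the genome (chr2:26466563-26466621 and chr2:26466621-26466680), so the pair is no independent reading of distant parts of the transcript. It gave 749, 848, 912 and 821 in controls and 609, 596, 788 and 635 in Gen-treated mice, where Gen replicate 3 was above the lowest control. Its log2 difference was −0.35 (SE 0.13).

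Notch2, a broadly expressed receptor, was read by 3 probes. A_52_P289213 gave 11197, 10203, 10467 and 12123 in controls and 11937, 8933, 11944 and 11652 in Gen-treated mice, a difference of 0.01 (SE 0.13). The probes A_52_P448796 and A_51_P216397 had differences of −0.23 (SE 0.15) and −0.22 (SE 0.24), and both overlapped between the groups. Notch3, the receptor of mural cells, gave 9318, 8311, 7422 and 9616 in controls and 8703, 7592, 8660 and 10592 in Gen-treated mice, a difference of 0.03 (SE 0.14). Notch4, the receptor typical of endothelium, gave 1629, 2094, 2049 and 1751 against 1616, 1842, 2141 and 1570, a difference of −0.07 (SE 0.15). For both of these receptors the highest array of all 8 was a Gen array. Set against the other receptors on the same array, Notch1 A_51_P508510 minus Notch2 A_52_P289213 ran from −3.15 to −2.96 in controls and from −3.47 to −3.26 in Gen-treated mice, and Notch1 minus Notch3 from −2.84 to −2.53 and from −3.33 to −2.89. Neither pair overlapped between the groups. The Notch2 probe used here was the only probe of that gene whose Gen mean was not lower. Notch1 was not set against A_52_P448796 or A_51_P216397, whose differences of −0.23 and −0.22 lie nearer to its own −0.29. The first pair thus describes these probes, and no fall relative to Notch2 as a gene is read from it. Notch1 minus Notch4 did overlap, with a mean of −0.51 (SD 0.19) in controls and −0.72 (SD 0.25) in Gen-treated mice.

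**Figure D2:**
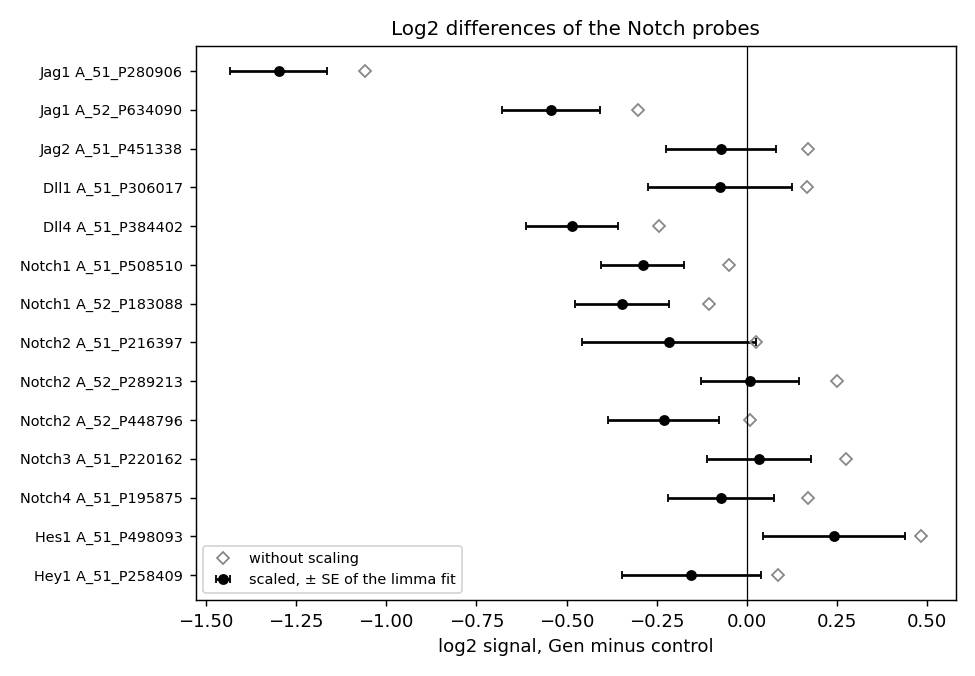
Difference in log2 signal, Gen minus control (x axis), of the 14 probes, with black points for scaled arrays and bars of ± 1 SE of the limma fit (n = 4 per group), and open diamonds for the same difference without scaling between arrays. Jag1 A_51_P280906 lies farthest to the left at −1.30, and without scaling all 14 values move to the right by the same 0.24.

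The position of zero depended on the scaling. Without scaling, the median difference of the probes detected throughout was 0.24, and 6 of the 14 values changed sign. Jag1, Dll4 and Notch1 stayed lower in Gen-treated mice (−1.06 and −0.30 for Jag1, −0.24 for Dll4, −0.05 and −0.11 for Notch1). Jag2, Dll1, Notch4, Hey1 and 2 of the Notch2 probes (A_51_P216397 and A_52_P448796) turned to between 0.01 and 0.17. Relative to that median shift, the differences were −1.29 and −0.54 for Jag1, −0.48 for Dll4 and −0.28 and −0.34 for Notch1.

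The targets Hes1 and Hey1 encode repressors of the basic helix-loop-helix class that are switched on by the cut receptor in many tissues. Hes1 gave 2178, 1321, 1214 and 1430 in controls and 1859, 1498, 1842 and 1903 in Gen-treated mice, a difference of 0.24 (SE 0.20). Control replicate 1 was the highest of all 8 arrays, and the other 3 controls were below every Gen array. Hey1 gave 16357, 10682, 9658 and 11203 in controls and 10586, 8696, 10703 and 12497 in Gen-treated mice, a difference of −0.15 (SE 0.19). Control replicate 1 was again the highest. The 2 genes moved together from mouse to mouse: after the mean of each group was subtracted, their log2 signals had a correlation of 0.97 over the 8 arrays, the highest of the 45 pairs among the 10 genes. These points share their arrays and the scaling, and the correlation is a description. Because of this common movement, Hey1 minus Hes1 on the same array varied little, with a mean of 2.97 (SD 0.05) in controls and 2.58 (SD 0.09) in Gen-treated mice. Its range was 2.91 to 3.02 in controls and 2.51 to 2.72 in Gen-treated mice, so Hey1 was lower relative to Hes1 on every Gen array, by 0.40 on average, although neither gene separated the groups alone. Among the other pairs, Notch1 and Notch2 had a correlation of 0.88, Jag1 and Notch2 of 0.81, and Dll4 and Notch2 of −0.85.

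The other Hes and Hey genes differed in size and direction. Hey2, a close relative of Hey1 that is known from arteries and heart, fell by 1.05 on the log2 scale, from 562 to 272 (SE 0.24; adjusted p = 0.0246 by limma). Its signals were 432, 642, 539 and 665 in controls and 370, 225, 334 and 197 in Gen-treated mice, without overlap. With dim probes left out the limma adjusted p was 0.0745. Over the 17 alternatives and arrays left out, the adjusted p of Hey2 ranged from 0.0248 to 0.184 and was under 0.05 in 5. It was 0.0913 with quantile normalization, 0.151 without scaling, 0.0936 with normexp and 0.184 with a floor. By the methods' t-test it was 0.0630, and with the replicate block 0.103. It was also above 0.05 without control replicate 1 (0.0591) or 2 (0.0589) and without Gen replicate 1 (0.0633), 2 (0.0693) or 3 (0.0603). Hes5, a target typical of neural progenitors, gave 153, 184, 168 and 276 in controls and 129, 153, 76.3 and 124 in Gen-treated mice, a difference of −0.70 (SE 0.26, limma adjusted p = 0.119); its highest Gen value, 152.5, lay just below its lowest control value, 152.7. Heyl, the Hey gene known from vascular mural cells, had the opposite direction, with 2827, 2424, 2662 and 2486 in controls and 3781, 3268, 3095 and 4104 in Gen-treated mice, without overlap. The difference was 0.45 (SE 0.13) with a limma adjusted p of 0.0502, and its second probe gave 0.25 (SE 0.12). On the same array, Hey2 minus Heyl ran from −2.71 to −1.90 in controls and from −4.38 to −3.21 in Gen-treated mice. Hes6 had differences of −0.03 and −0.19 on its 2 probes. Those of Hes2 were −0.25 and, on A_52_P263658, 0.17, where the groups did not overlap (limma adjusted p = 0.302). The probes of Hes3 and Hes7 were well above background on 0 arrays. Of the 2 genes whose promoters are printed above, Hey2 thus passed the test as reported, though not under most alternatives, and Hes5 did not.

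**Figure D3:**
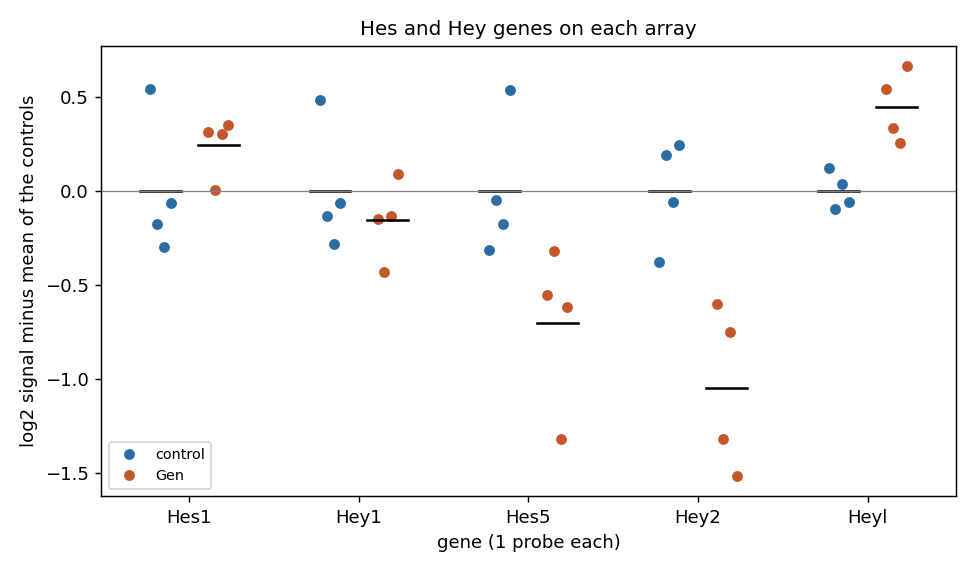
Log2 signal minus the mean of the 4 controls (y axis) for Hes1, Hey1, Hes5, Hey2 and Heyl, 1 probe per gene; points are arrays (4 control, 4 Gen-treated) and black lines are group means. Hey2 lies lower and Heyl higher in all Gen-treated mice, with means of −1.05 and 0.45, whereas control replicate 1 is the highest point of both Hes1 and Hey1.

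The rest of the pathway was covered by 7 lists with 71 genes, of which 70 had a probe and 67 were measured, that is, well above background throughout the control or the Gen group. Of these 67, 2 fell and none rose at a limma adjusted p under 0.05, 8 had an unadjusted p under 0.05, and the median log2 difference was −0.03. The 2 calls are read against the 4.37% called, also at an adjusted p, among all probes detected throughout, a set defined a little more strictly than the 67. The share of all probes at an unadjusted p under 0.05 is not given, so nothing is read from the 8. Beside Hey2, the gene called was Tle1, a Groucho corepressor that works with Hes proteins. Its mean signal was 18435 in controls and 9379 after Gen, so that Tle1 fell by 0.97 on the log2 scale (SE 0.16; adjusted p = 0.0236 by limma). Its signals were 13810, 21339, 20443 and 19171 in controls and 9807, 10136, 8659 and 8990 in Gen-treated mice. A second Tle1 probe gave −0.99 (SE 0.14), but the remaining one, A_52_P330694, gave 0.23 (SE 0.16). Over the 17 alternatives and arrays left out, the adjusted p of Tle1 ranged from 0.0148 to 0.104 and was under 0.05 in 9 of them. It was 0.0603 with quantile normalization, 0.104 without scaling and 0.0967 with a floor. By the methods' t-test it was 0.0630, and with the replicate block 0.0791. It was also above 0.05 without Gen replicate 1 (0.0633), 2 (0.0675) or 3 (0.0603). Its relative Tle4 had a difference of 0.24, and Tle1 minus Tle4 on the same array ran from 0.21 to 1.24 in controls and from −0.58 to −0.19 in Gen-treated mice.

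By role, the 10 cleavage genes, which hold gamma-secretase and Adam proteases, had 0 calls and a median difference of 0.09, with Aph1c at 0.47 (limma adjusted p = 0.0811). The 5 genes that put sugars on the receptors had 0 calls and a median of −0.12, with Lfng at −0.17. The 14 genes of ligand endocytosis, ubiquitin ligases and antagonists such as Numb had 0 calls and a median of −0.06. The 22 genes of the nuclear complex and its corepressors had 1 call, Tle1, and a median of 0.02, with Rbpj at 0.15 (SE 0.19) and Maml1 at 0.38 (SE 0.23). The 8 other reported targets, by the brightest probe of each gene, had 0 calls and a median of −0.07, with Gata2, a zinc finger transcription factor, at −0.55 (limma adjusted p = 0.108), and at −0.72 on its second probe, A_52_P233441, which was called and did not overlap between the groups (limma adjusted p = 0.0289, and 0.0849 with dim probes left out). The 4 atypical or other ligands had 1 gene called, Dll3, which stood well above background on 3 Gen arrays and on 0 of the controls; its bound gave no fold.

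**Figure D4:**
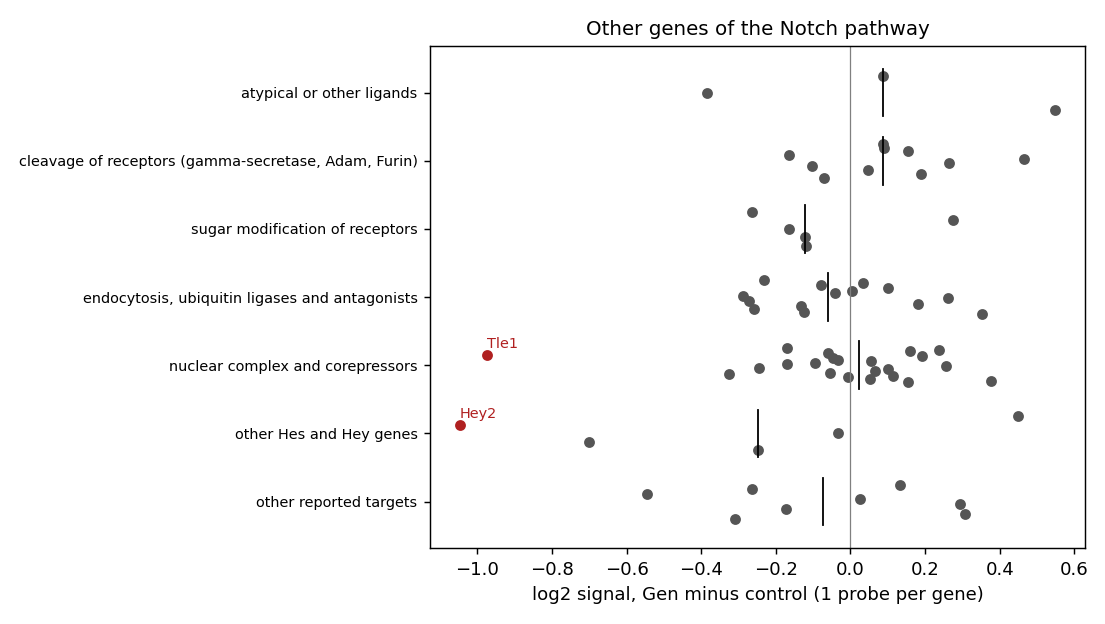
Difference in log2 signal, Gen minus control (x axis), of the 67 genes measured in the 7 pathway lists, 1 probe per gene; grey points were not called, red points were called by limma, and vertical lines are list medians. Only Tle1 and Hey2 are red, at −0.97 and −1.05.

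Levels of the cell types that could carry these genes were read from marker lists on the same arrays. All 14 endothelial markers were detected throughout, 12 were higher in Gen-treated mice by any amount, and the median difference was 0.20. One was called, Sox17, a transcription factor that oviduct epithelium also makes, at −0.62 (limma adjusted p = 0.0394). Its adjusted p was under 0.05 in 2 of the 17 alternatives and arrays left out, was 0.0993 with dim probes left out, and lay above 0.05 without any 1 of the 8 arrays. Pecam1, Cdh5 and Kdr had differences of 0.20, 0.31 and 0.01, and the summed endothelial signal was 96778 to 108555 in controls and 97619 to 108527 in Gen-treated mice. Dll4, chosen with its own values known, was set against these markers. The endothelial mean log2 signal differed by only 0.10, so such a difference largely repeats that of Dll4 itself. Dll4 minus the mean endothelial log2 signal ran from −2.97 to −2.59 in controls and from −3.59 to −3.25 in Gen-treated mice, and Dll4 minus Pecam1 and Dll4 minus Cdh5 likewise did not overlap. For Jag1 A_52_P634090 the same difference ran from 1.46 to 1.67 in controls and from 0.43 to 1.20 in Gen-treated mice. Epithelia make Jag1 too, but it was not set against the other lists. The mean log2 signal, Gen minus control, differed by −0.23 for oviduct epithelium and −0.33 for smooth muscle, in the direction of Jag1.

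All 10 smooth muscle markers were lower by any amount, with a median of −0.30 and 0 called (Myh11 −0.30, limma adjusted p = 0.329), and their summed signal was 1271287 to 1692828 in controls and 1048991 to 1398314 in Gen-treated mice. The 7 pericyte markers had a median of 0.08 (Rgs5 −0.28) and 1 call, Anpep at 0.74, and the 10 markers of ciliated epithelium a median of −0.01 (Foxj1 0.03). The 9 markers of oviduct epithelium had a median of −0.28 (Pax8 −0.28, Ovgp1 0.06), with Cldn3 called lower at −0.67 (limma adjusted p = 0.0287, and 0.0834 with dim probes left out). The 3 lymphatic endothelial markers with a probe had a median of −0.15, with Pdpn called lower at −0.76 (limma adjusted p = 0.0236, and 0.0344 with dim probes left out). The 6 fibroblast markers had a median of −0.07 and 0 calls, and the 5 measured markers of stratified squamous epithelium a median of −0.03 and 0 calls. Medians were above 0 in 4 further lists: 0.43 for 8 macrophage markers, 1.18 for 8 markers of B cells and plasma cells, 0.55 for 7 T cell markers and 2.54 for the 7 measured markers of granulosa and cumulus cells, with 1, 3, 1 and 4 of these genes called higher. The summed signal of the last list was 4140 to 29049 in controls and 33280 to 141698 in Gen-treated mice. The part of these lists in the values of the Notch genes was not tested.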

How the data were processed

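Oviduct RNA of 8 biological replicates, each taken as 1 mouse, was hybridized, 1 replicate per array, to Agilent whole mouse genome arrays. Groups and replicate numbers came from the sample labels, and nothing was left unassigned. The authors ran Agilent Feature Extraction 9.5 on each scan, and the values taken from the deposited files are its processed signals, which are intensities on a linear scale after background adjustment and detrending, without scaling of arrays to each other. The series table of the deposit holds the same intensity values. The Rosetta Resolver step of the study comes later and was not applied. Its analysis of variance of the arrays was therefore not rerun. Student's t-test, which the methods name for comparisons of control with Gen-treated samples, was an alternative. The files give positions on mm7, and exons and untranslated regions are not given, since no genome of that build was used here.

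Control spots (1639) and outlier spots were left out, log2 signals of a probe were averaged, and arrays were scaled to the mean of their 75th percentiles. A log2 difference, Gen minus control, and its SE came from limma 3.58.1 (lmFit and eBayes, R 4.3.3), with Benjamini-Hochberg adjustment over 41173 probes. A gene of a list was represented by its brightest probe. The steps were tested on simulated data. Of 100 simulated probes with a log2 change of 0.5, 0 were called, and of 100 with a change of 1, 43 were called. All other simulated probes had no change, whereas 16.2% of the real probes were called, so these shares do not carry over directly. With 4 arrays per group, the arrays set the precision. The probes described are all those whose gene name is 1 of the 10 Notch genes. From the pathway lists, genes with an adjusted p under 0.05 that were well above background on all arrays of a group were named, with Rbpj, Maml1, Lfng, Hes5, Hey2, Heyl and 8 markers whatever their values; a further gene of this rule is not reported here. Others named, such as Aph1c, Gata2, Tle4, Sox17, Pdpn, Anpep and Cldn3, were picked after their values were seen, as were the promoters shown. The members and lists were chosen with earlier results of these data known. A motif was searched for on both strands. Alternatives were quantile normalization, no scaling, normexp (offset 50), dim probes left out, a floor, outlier spots kept, the replicate number as a block, a variance trend (robust), the methods' t-test, averaging the probes of a gene, and each array left out in turn. Plots were drawn with matplotlib 3.10.9.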

Additional observations from a re-analysis of the deposited data

Results flagged for a closer look

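In 3 of the 28 groups of 4 arrays, 1 array lay far from the others by Dixon's ratio on the log2 scale, its gap to the nearest array divided by the range of the group, above its 95% limit, and chance gives about 1 in 20 such groups. Gen replicate 2 was the low array in each. The ratio was 0.915 for Notch2 A_52_P289213, where that array gave 8933 and the other 3 gave 11652 to 11944. It was 0.865 for Notch2 A_52_P448796, where it gave 203 and the others 266 to 278, and 0.864 for Hes1, where it gave 1498 and the others 1842 to 1903. Gen replicate 2 was also the lowest Gen array of both Jag1 probes.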

How the results depend on the processing

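Of the 14 Notch probes, 3 had an adjusted p under 0.05 as reported, with outlier spots kept and with a variance trend. The count was 1 (Jag1 A_51_P280906) with quantile normalization, normexp, dim probes left out or a floor, and 0 without scaling, by the methods' t-test (5 at an unadjusted p under 0.05) or with the replicate number as a block (4 at an unadjusted p under 0.05). Same-numbered arrays had correlations of −0.18 to 0.11, and other pairs of −0.23 to 0.38, so the numbers gave no sign of a pairing. These few values cannot exclude one. The paper compared Gen-treated mice with control littermates, and the labels do not give litters. Leaving out single arrays gave 0 to 2. The count was 0 without Gen replicate 1, 2 or 3, 1 without control replicate 1, 2 or 3, and 2 without control replicate 4 or Gen replicate 4. Of all probes, 6674 were called as reported, 6646 with outlier spots kept and 6993 with the variance trend. The total was 178 with quantile normalization, 251 with normexp, 320 with dim probes left out and 20 with a floor. It was 640 without scaling, 0 by the methods' t-test, 1 with the replicate block and between 1 and 7130 with an array left out. The counts of Notch probes at an adjusted p are read beside these totals. No total of all probes is given at an unadjusted p, and nothing is read from those counts.

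Of the other pathway genes, 3 were called as reported (Tle1, Hey2 and Dll3), 4 with the variance trend, 1 without scaling, with normexp or with dim probes left out, and 0 with quantile normalization, a floor, the methods' t-test, the replicate block or the averaged probes of each gene. With each array left out the count was 0 to 3. These counts are likewise read beside the totals over all probes given above. With averaged probes, 68 genes in all were called.

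The log2 difference of Jag1 A_51_P280906 was −0.86 with normexp and −1.02 with the floor, and it was below 0 under all 16 alternatives run. Those of Jag1 A_52_P634090, Dll4 and Notch1 A_51_P508510 were below 0 under all 17. Many of these alternatives could not turn the sign, so the counts are no measure of robustness. Leaving out dim probes, the variance trend and the replicate block do not change a difference. Leaving out an array cannot turn the sign of these probes, whose groups do not overlap. With an array left out, Hes1 lay between 0.14 and 0.42 and Hey1 between −0.25 and 0.01. The cause of these shifts was not tested.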

Other observations

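For each of the 10 genes, the genes whose log2 signals followed it most closely over the 8 arrays, after the mean of each group was subtracted, were taken from 16802 genes well above background on all arrays. The closest to Jag1 were Spata6 (r = 0.98), S100g (0.97) and C030034L19Rik (0.96), and to Dll4 Syce1 (0.97), Bik (0.96) and Nip7 (0.96). Notch1 was followed by Fhad1 (0.996), Tomm20l (0.99) and Ift88 (0.99), and Notch2 by Grk4 (0.99), Cfap43 (0.98) and Rhpn2 (0.98). Hes1 was followed by Coa6 (0.99), Peak1 (0.99) and Lancl2 (0.99), and Hey1 by Osgin2 (0.99), Psd3 (0.99) and Ccdc74a (0.99). Over 8 arrays and this many genes the highest values are all close to 1, and they are given as a description.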
